A study of Homo sapiens with 12 samples.

Results

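The genes described are 33 genes of glycolysis, the pentose phosphate pathway and the steps next to them, chosen by symbol out of 46639 gene symbols in the deposited table. For each symbol, all transcript rows were summed. RNA was sequenced from MOLM-13, an acute myeloid leukemia cell line with monocytic features, in 4 groups of 3 libraries. The groups were untreated cells, cells given 100 nM decitabine (DAC, a nucleoside analog that depletes DNA methyltransferases), cells given 1 µM all-trans retinoic acid (ATRA, the ligand of retinoic acid receptors) and cells given both (DAC+ATRA). Per the labels all groups grew with 20% fetal calf serum and 5 ng/ml human GM-CSF, a cytokine that drives myeloid cells, while the methods of the study name less serum and no GM-CSF for this line. The labels give 96 h for untreated and 72 h for treated libraries, the design text gives 72 h, and the methods of the study place ATRA on the last of 3 days of DAC. The 3 libraries of a group are technical triplicates of 1 cell line, so p-values measure the spread within 1 experiment. The labels call the control libraries untreated, while the methods speak of vehicle controls.

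Glycolysis splits glucose into pyruvate, which either becomes lactate and leaves the cell or enters mitochondria, where the pyruvate dehydrogenase complex acts on it. The pentose phosphate pathway branches off after the hexokinase step and yields NADPH and the ribose of nucleotides. Myeloid cells depend on glycolysis for energy, and phagocytes use NADPH for the oxidative burst. Many glycolytic genes are targets of the hypoxia-inducible transcription factors and of MYC.

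Values are normalised counts, which are read counts per library divided by a size factor that brings the libraries to a common scale. Depth was 8.95 to 11.9 M recovered reads (M stands for mega) in untreated, 8.36 to 10.7 M in ATRA, 4.67 to 6.95 M in DAC and 5.61 to 7.16 M in DAC+ATRA, so both groups with DAC were the shallower ones. The 33 genes held 0.739 ± 0.0409% of all reads in untreated (SD, n = 3, as for all values with ±, unless they are log2 changes with SE), 0.640 ± 0.0422% in ATRA, 0.573 ± 0.0248% in DAC and 0.527 ± 0.0317% where both drugs were given. All 10 myeloid markers had reads in every library, while the 4 erythroid markers summed to at most 2.04 and the 4 lymphoid markers to at most 37.6 normalised counts. The 7 epithelial, hepatic and fibroblast markers summed to 39.0 to 119, nearly all from KRT8 and COL1A1, with 4 of the 7 at 0 in every library. DAC replicate 3 stood apart: the median absolute difference on the log2 scale over the tested genes was 0.395 and 0.346 from it to the other DAC libraries, against 0.160 to 0.276 for the remaining pairs of libraries within a group. Calls of members that change without it are given beside the members. Fewer cells of a type and less RNA per cell cannot be told apart in these bulk samples. Rows were counted per transcript, which appears to leave out reads shared by transcripts, so levels are lower limits and are compared between libraries, not between genes.

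Of the 33 genes, 31 passed the filter on low values (10 or more normalised counts in 3 or more libraries) and were tested with limma among 10642 protein-coding genes, with a call at an adjusted p under 0.01. GPI, which turns glucose 6-phosphate into fructose 6-phosphate, had 1 to 15 reads per library and was not tested. PFKM, the muscle phosphofructokinase, had 0 to 6 reads and was not tested either.

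The comparison of DAC with untreated asked what DAC alone did to the pathway. It called 13 members, where 7.97% of all genes tested were called. Of these, 3 were higher, against 4.29% of all genes, and 10 were lower, against 3.67%. Those that rose were HK3, PGD and TALDO1, and those that fell were SLC2A3, PFKP, PFKFB4, ALDOA, ALDOC, GAPDH, PGK1, ENO1, SLC16A3 and PDK1. The median log2 change was -0.12 over the 31 members and 0.00 over all genes. The count was 8 without untreated replicate 2 and 16 without DAC replicate 3, the latter with 8 higher and 8 lower, where 1385 in place of 848 of all genes were called. Leaving out that library added the calls of HK1, PFKFB2, PKM, PGLS and RPIA, each higher, and ended those of PFKP and ALDOA.

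With ATRA alone, 12 members were called, where 26% of all genes were. There were 6 higher, against 12.1% of all genes, and 6 lower, against 14%. HK3, PFKFB2, PGAM1, SLC16A3, PGD and RPIA rose, and SLC2A3, PFKFB4, GAPDH, ENO1, SLC16A1 and PDK1 fell. Medians were -0.04 for members and -0.04 for all genes.

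With both drugs, 18 members were called, where 28.9% of all genes were. There were 7 higher, against 14.5% of all genes, and 11 lower, against 14.4%, and 14 of the 18 changed over 2-fold, against 14.5%. HK3, PFKFB2, PGAM1, PGD, PGLS, TALDO1 and RPIA rose, whereas SLC2A3, HK2, PFKFB4, ALDOA, ALDOC, GAPDH, PGK1, ENO1, LDHA, SLC16A1 and PDK1 fell. The median change was -0.04 for members and 0.00 for all genes. The 3 comparisons share the untreated libraries. In at least 1 of them, 20 members were called (38.9% of all genes), and 21 in at least 1 of all 6 comparisons (41.8%). SLC2A3, PFKFB4, GAPDH, ENO1 and PDK1 were lower in all 3 (5 members, where 1.2% of all genes were), and HK3 and PGD were higher in all 3 (2 members, where 1.36% were).

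**Figure D1:**
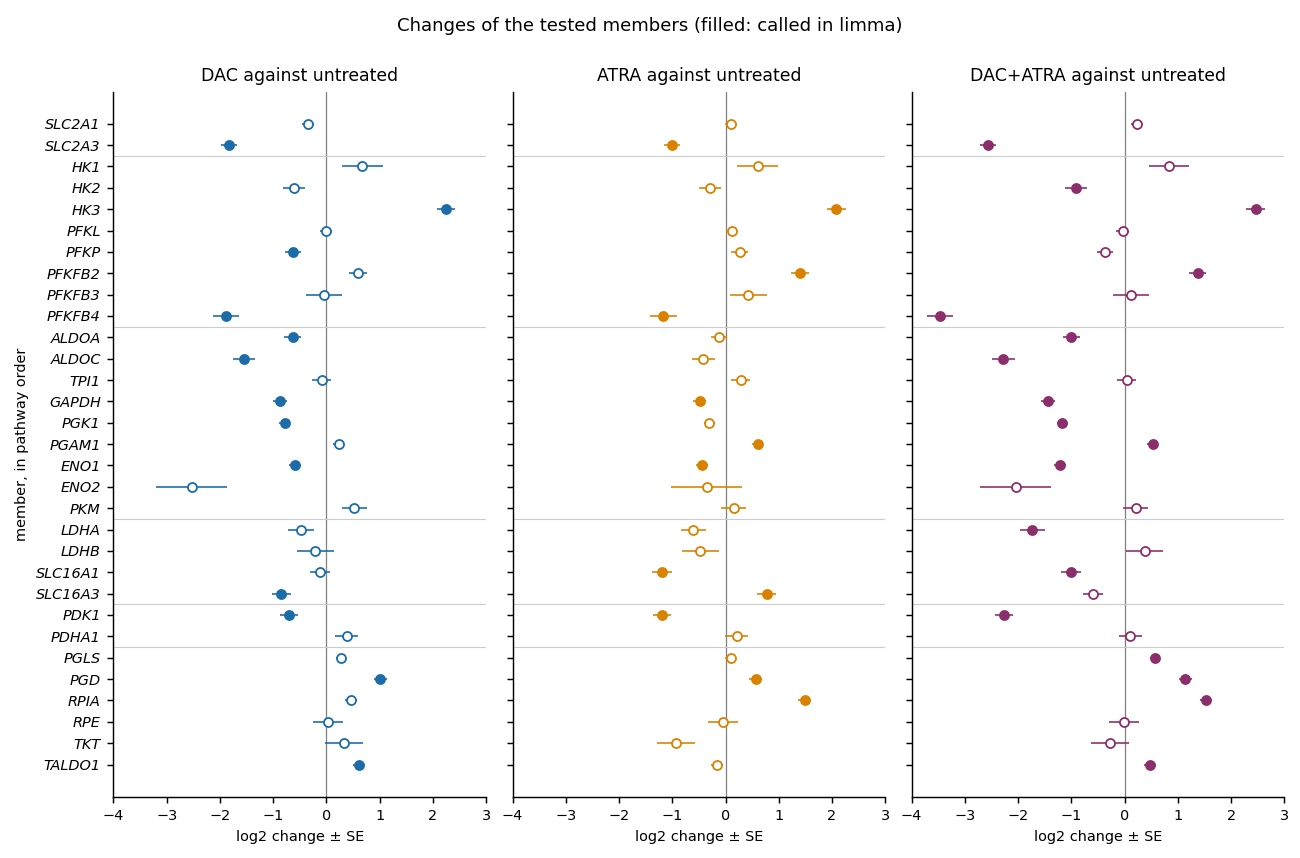
The log2 change against untreated (x axis, with its SE from limma) is plotted for the 31 tested members (y axis, in pathway order from glucose entry at the top to the pentose phosphate pathway at the bottom), 1 panel per treatment, with filled points for called members. The 5 called members between aldolase and enolase that fell with DAC+ATRA lie left of 0, and the 4 called pentose phosphate members lie right of it.

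Glucose entry was led by the fall of SLC2A3, the high-affinity glucose carrier GLUT3. It stood at 10178, 9238 and 8172 normalised counts in untreated, 2403, 2508 and 2818 with DAC, 3738, 6319 and 3966 with ATRA and 1578, 1571 and 1473 with DAC+ATRA. No treated library reached the lowest untreated library, and the DAC+ATRA libraries lay below all others. The log2 change was -1.83 ± 0.15 with DAC (adjusted p = 1.06e-07), -1.01 ± 0.15 with ATRA (adjusted p = 2.34e-05) and -2.57 ± 0.15 with both drugs (adjusted p = 7.42e-11), the last a 5.94-fold fall. SLC2A3 shares near-identical sequence with SLC2A14, whose reads rose from 7.56 ± 4.95 in untreated to 29.2 ± 5.06 with DAC+ATRA, so the split of reads between both is uncertain. SLC2A1, the widespread carrier GLUT1, was at 1092 ± 57.5 in untreated, 856 ± 89.1 with DAC, 1175 ± 141 with ATRA and 1283 ± 30.8 with DAC+ATRA. It was called only between DAC+ATRA and DAC, at 0.59 ± 0.11 (adjusted p = 0.000462).

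The hexokinases, which trap glucose as glucose 6-phosphate, moved apart. HK3, a myeloid-enriched hexokinase, had 212, 214 and 242 normalised counts in untreated, 1368, 1104 and 783 with DAC, 785, 912 and 1172 with ATRA and 1041, 1405 and 1272 with DAC+ATRA. Every treated library lay above every untreated library, and the treated groups overlapped each other. The rise was 4.73-fold with DAC (adjusted p = 6.71e-08), 4.22-fold with ATRA (adjusted p = 1.65e-08) and 5.51-fold with both (adjusted p = 1.71e-09). HK2, the hexokinase that is typically raised in fast-growing cells, went from 171 ± 13.0 in untreated to 89.7 ± 4.22 with DAC+ATRA, a log2 change of -0.92 ± 0.21 (adjusted p = 0.00137), with 112 ± 16.0 in DAC and 145 ± 44.1 in ATRA, neither past the test. HK1, the housekeeping form, ranged from 19.4 to 72.5 normalised counts over the 12 libraries and was not called. Its change with DAC was 0.67 ± 0.38 (adjusted p = 0.264), and 1.21 and called without DAC replicate 3 (adjusted p = 0.00735).

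Phosphofructokinase commits sugar to glycolysis, and the PFKFB enzymes make and remove its strongest activator. PFKFB4, which has a kinase and a phosphatase domain, showed the largest fall of any member. PFKFB4 had 1348, 1435 and 1319 normalised counts in untreated, 374, 483 and 276 with DAC, 399.6, 1046 and 538 with ATRA and 125, 143 and 104 with DAC+ATRA. ATRA replicate 2 was the highest treated library and still below all untreated ones, and the DAC+ATRA libraries lay below every other library. The log2 change was -1.89 ± 0.25 with DAC (adjusted p = 3.01e-05), -1.17 ± 0.25 with ATRA (adjusted p = 0.00102) and -3.46 ± 0.25 with both (adjusted p = 1.84e-09), or 11.0-fold for the last. With DESeq2 the ATRA change had an adjusted p of 0.0118.

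PFKFB2, another enzyme of that family, moved the other way. Its values were 75.4, 94.2 and 114 in untreated, 163, 136 and 127 with DAC, 249.96, 222 and 267 with ATRA and 265, 238 and 226 with DAC+ATRA. The libraries with ATRA lay above all those without it. It rose by 1.39 ± 0.17 with ATRA (adjusted p = 1.83e-06) and by 1.37 ± 0.17 with both (adjusted p = 2.4e-06), while the change with DAC was 0.60 ± 0.17 (adjusted p = 0.0193), called without DAC replicate 3 (0.67, adjusted p = 0.00780). PFKP, the platelet phosphofructokinase, went from 287 ± 30.2 to 188 ± 40.3 with DAC (adjusted p = 0.00974), a call that was lost in 14 of 25 alternative analyses, among them without DAC replicate 3 (adjusted p = 0.0223). PFKL, the liver form, stayed between 2871 and 3975 normalised counts, and PFKFB3, an inducible family member, between 17.4 and 59.6, and neither was called in any comparison.

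The steps from aldolase to pyruvate kinase held the most members that fell with DAC, with 5 of 9 tested members lower and 0 higher with DAC, 2 lower and 1 higher with ATRA, and 5 lower and 1 higher with both. Of all genes, 3.67% were lower with DAC, 14% with ATRA and 14.4% with both, so the ATRA count is near that share. ALDOC, the brain-type aldolase, had 124, 149 and 130.5 normalised counts in untreated, 42.0, 40.8 and 53.3 with DAC, 94.1, 112 and 96.1 with ATRA and 32.2, 28.1 and 21.4 with DAC+ATRA. The 4 groups did not overlap. It fell 2.93-fold with DAC (adjusted p = 4e-05) and 4.84-fold with both (adjusted p = 6.3e-08), and the ATRA change of -0.41 ± 0.21 did not pass (adjusted p = 0.136). ALDOA, the main aldolase, went from 1024 ± 185 in untreated to 659 ± 119 with DAC, 944 ± 196 with ATRA and 506 ± 19.8 with both, where the log2 change was -1.001 ± 0.16 (adjusted p = 3.97e-05). Its DAC call (adjusted p = 0.00876) was lost in 13 of 25 alternatives, with an adjusted p of 0.0605 without untreated replicate 3 and 0.0158 without DAC replicate 3.

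GAPDH oxidizes glyceraldehyde phosphate and is often taken as a reference gene. Its normalised counts were 4455, 5176 and 5291 in untreated, 2684, 2868 and 2569.9 with DAC, 2793, 4023 and 3954 with ATRA and 1832, 1959 and 1708 with DAC+ATRA. Untreated libraries were the highest and DAC+ATRA libraries the lowest, with no overlap of either with another group. The log2 change was -0.87 ± 0.13 with DAC (adjusted p = 7.71e-05), -0.49 ± 0.13 with ATRA (adjusted p = 0.00486) and -1.44 ± 0.13 with both (adjusted p = 2.89e-08). The ATRA call had an adjusted p of 0.0321 without ATRA replicate 1, 0.0264 without untreated replicate 2 and 0.0247 without untreated replicate 3. Of 6 GAPDH transcript rows, 5 were lower with DAC+ATRA, while GAPDH-203 was at 64.9 ± 6.44 in untreated and 68.6 ± 5.65 with DAC+ATRA.

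PGK1, which makes the first ATP of the pathway, also fell. It had 5643, 5487 and 5270.4 normalised counts in untreated, 3127, 2885 and 3533 with DAC, 4116, 4904 and 4259 with ATRA and 2646, 2412 and 2237 with DAC+ATRA. The groups did not overlap, in the order untreated, ATRA, DAC and DAC+ATRA from high to low. The changes were -0.79 ± 0.11 with DAC (adjusted p = 3.48e-05), -0.31 ± 0.11 with ATRA (adjusted p = 0.0274, not called) and -1.17 ± 0.11 with both (adjusted p = 4.19e-08). The ATRA change of PGK1 was called without DAC replicate 3 (adjusted p = 0.00919) and with scaling by library total (-0.36, adjusted p = 0.00569). ENO1, the main enolase, had 15299.9, 14541 and 12213 normalised counts in untreated, 8924, 8478 and 10368 with DAC, 9357, 11286 and 10397 with ATRA and 6313, 6055 and 5646 with DAC+ATRA. All treated libraries lay below all untreated ones, with ATRA and DAC overlapping. It changed by -0.60 ± 0.11 with DAC (adjusted p = 0.00117), -0.44 ± 0.11 with ATRA (adjusted p = 0.00494) and -1.22 ± 0.11 with both (adjusted p = 6.66e-08). The ATRA call for ENO1 had an adjusted p of 0.0341 without untreated replicate 1, 0.0277 without untreated replicate 2, 0.0272 without ATRA replicate 1 and 0.0135 without ATRA replicate 3, and the DAC call 0.0107 and 0.0103 without untreated replicate 1 or 2.

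PGAM1, the phosphoglycerate mutase between PGK1 and enolase, rose with ATRA and with both drugs. It was at 3357 ± 344 in untreated, 3922 ± 286 with DAC, 5094 ± 273 with ATRA and 4811 ± 141 with both, a log2 change of 0.61 ± 0.10 with ATRA (adjusted p = 8.26e-05) and 0.52 ± 0.10 with both (adjusted p = 0.000347). TPI1, which interconverts the triose phosphates, ranged from 92.5 to 155 normalised counts and PKM, pyruvate kinase, from 84.0 to 191, and neither was called. PKM changed by 0.52 ± 0.24 with DAC (adjusted p = 0.152), and by 0.82 without DAC replicate 3, which was called (adjusted p = 0.00645). ENO2, the neuronal enolase, had 8 to 22 reads per untreated library and 0 to 2 per DAC library, which makes it at least 2.43-fold lower, but it did not pass the test (adjusted p = 0.014), though it did without DAC replicate 2 (adjusted p = 0.00874) or ATRA replicate 1 (adjusted p = 0.00807). GAPDH, PGK1, PGAM1, ENO1, TPI1, PKM, ALDOA and LDHA have processed pseudogenes in the genome, so the assignment of their reads is uncertain.

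**Figure D2:**
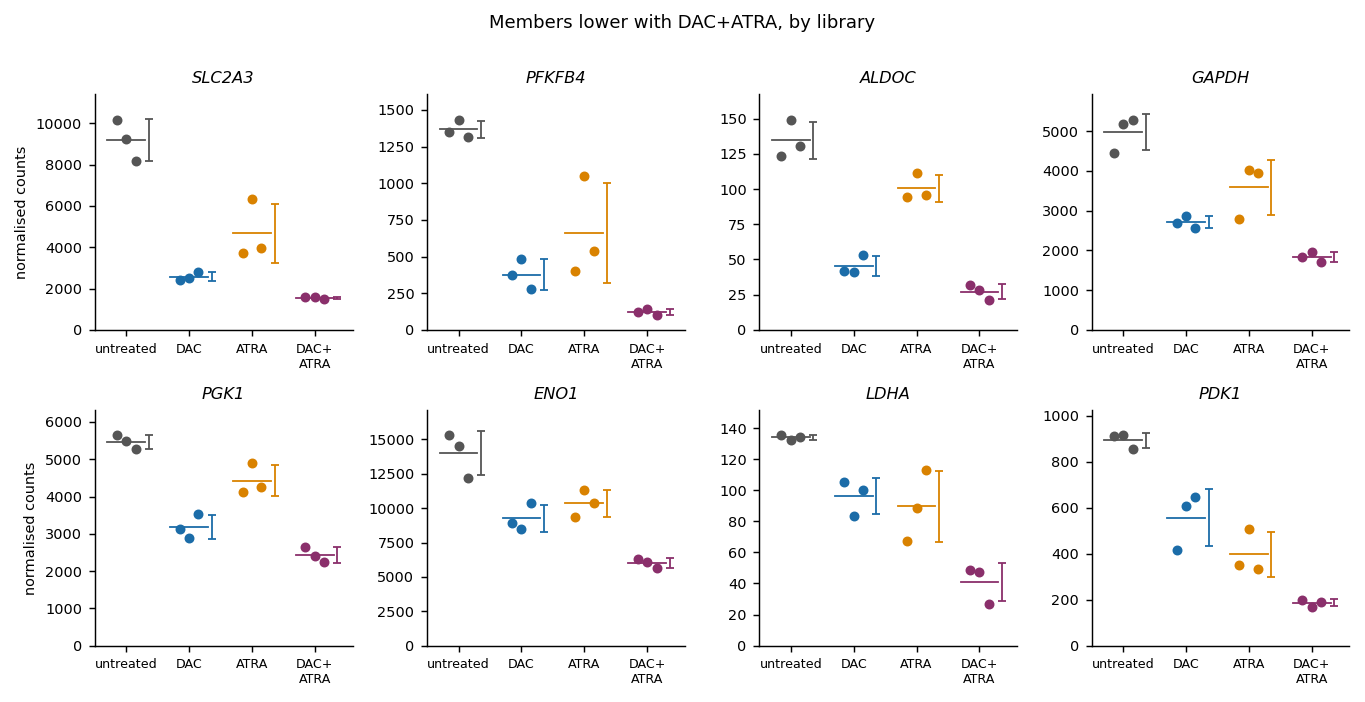
Normalised counts (y axis, from 0, on a scale of its own in each panel) of 8 members that fell with DAC+ATRA, with 1 point per library, the group mean as a line and the SD as a bar beside it (n = 3). In each panel the DAC+ATRA libraries lie below the libraries of every other group.

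Promoter sequence is shown for members that fell together and for a member that rose, because hypoxia-inducible factors bind the core ACGTG and MYC and its relatives bind the E-box CACGTG. The windows are the 250 bases before the RefSeq start (GRCh38.p14) nearest to the most read transcript row, which was found within 1000 bases for 26 of the 33 members. Capitals mark ACGTG on either strand (CACGT on the printed strand is its reverse complement, and CACGTG holds both), and sequences run 5′ to 3′ on the gene's strand. ALDOC is at chr17:28576896-28577145, minus strand, GAPDH at chr12:6535014-6535263, plus strand, PGK1 at chrX:78103998-78104247, plus strand, PDK1 at chr2:172555840-172556089, plus strand, PFKFB4 at chr3:48556804-48557053, minus strand, and HK3 at chr5:176899347-176899596, minus strand.
ALDOC: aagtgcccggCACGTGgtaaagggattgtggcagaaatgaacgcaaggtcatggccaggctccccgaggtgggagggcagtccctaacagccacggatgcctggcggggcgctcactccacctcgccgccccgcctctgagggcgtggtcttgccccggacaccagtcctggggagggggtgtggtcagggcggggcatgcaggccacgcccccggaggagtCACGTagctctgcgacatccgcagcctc
GAPDH: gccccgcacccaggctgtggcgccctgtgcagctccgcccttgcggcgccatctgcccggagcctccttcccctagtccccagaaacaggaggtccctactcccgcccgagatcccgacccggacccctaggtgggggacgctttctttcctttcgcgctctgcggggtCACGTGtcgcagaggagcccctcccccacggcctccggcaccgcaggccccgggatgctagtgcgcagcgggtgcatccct
PGK1: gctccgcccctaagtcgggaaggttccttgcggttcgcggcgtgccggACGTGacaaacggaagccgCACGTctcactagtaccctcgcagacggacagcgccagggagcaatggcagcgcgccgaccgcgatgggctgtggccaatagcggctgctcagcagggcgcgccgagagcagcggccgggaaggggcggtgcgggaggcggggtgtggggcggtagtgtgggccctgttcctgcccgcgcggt
PDK1: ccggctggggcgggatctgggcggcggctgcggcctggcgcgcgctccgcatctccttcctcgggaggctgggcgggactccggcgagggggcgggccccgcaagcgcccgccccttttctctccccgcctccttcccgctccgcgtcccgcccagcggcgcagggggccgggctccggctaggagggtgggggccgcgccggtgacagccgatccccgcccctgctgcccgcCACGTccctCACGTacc
PFKFB4: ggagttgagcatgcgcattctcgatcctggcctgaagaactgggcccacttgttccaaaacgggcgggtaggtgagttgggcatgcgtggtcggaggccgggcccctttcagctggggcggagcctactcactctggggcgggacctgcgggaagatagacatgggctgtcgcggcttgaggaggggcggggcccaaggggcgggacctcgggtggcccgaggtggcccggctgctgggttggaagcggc
HK3: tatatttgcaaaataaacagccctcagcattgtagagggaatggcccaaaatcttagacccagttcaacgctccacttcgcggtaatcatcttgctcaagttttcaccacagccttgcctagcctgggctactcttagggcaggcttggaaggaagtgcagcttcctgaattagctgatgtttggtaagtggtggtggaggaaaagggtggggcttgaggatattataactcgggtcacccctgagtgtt
The first 4 of these hold the letters, and PFKFB4, the member with the largest fall, and HK3 do not hold them in this window. Of the members lower with DAC+ATRA that are not printed, HK2 and ALDOA hold them and ENO1 and LDHA do not. SLC2A3 and SLC16A1, also lower, had no matched promoter. ACGTG was in 6 of 9 matched promoters of members lower with DAC+ATRA (66.7%), 1 of 5 of those higher (20.0%) and 2 of 12 of the other members (16.7%), against 20.5% of 16103 promoters of all genes matched in the same way and 23.7% of the 8036 promoters of genes tested. CACGTG was in 2 of the 9, ALDOC and GAPDH, against 9.13% of genes tested. AGGTCA, the half-site of retinoic acid receptors, was in 3 of 26 members, against 8.37% of genes tested. The 4 printed promoters that hold ACGTG have 68.4% to 79.6% G and C, against a mean of 64.9% over genes tested. The windows of GAPDH, PGK1, PDK1, ALDOA, PFKFB4, ENO1 and LDHA lie inside the annotated gene, downstream of its outermost start. That of ALDOC lies partly inside its gene, and those of HK2 and HK3 lie before their genes. For GAPDH, which had reads in 6 transcript rows, the window follows only the most read row. The shares thus describe windows before a chosen start, which need not be the main promoter. A match of letters is a description and not a binding site.

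At the lactate step, LDHA, which turns pyruvate into lactate, had 135, 132 and 134 normalised counts in untreated, 106, 83.1 and 100.1 with DAC, 67.2, 88.6 and 113 with ATRA and 49.0, 47.3 and 26.5 with DAC+ATRA. The DAC and ATRA libraries overlapped each other and lay below untreated, and the DAC+ATRA libraries lay below both. The fall passed the test with both drugs, at -1.74 ± 0.24 (adjusted p = 9.47e-06), and not with DAC (-0.48 ± 0.24, adjusted p = 0.193) or ATRA (-0.61 ± 0.24, adjusted p = 0.0526). The transcript row LDHA-219 held 88.5% of the LDHA reads, and LDHA had 26 to 42 reads per DAC+ATRA library. LDHA-205, a row with few reads, was at 6.22, 10.6 and 5.02 normalised counts in untreated and 9.80, 5.63 and 5.11 with DAC+ATRA. LDHB, the heart-type subunit, ranged from 11.97 to 35.6 normalised counts and was not called.

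SLC16A1 (MCT1), which moves lactate in either direction, had 156, 146 and 171 normalised counts in untreated, 139.9, 171 and 127 with DAC, 86.0, 58.0 and 64.4 with ATRA and 71.4, 78.8 and 83.7 with DAC+ATRA. All libraries with ATRA lay below all without it. Its change was -1.19 ± 0.19 with ATRA (adjusted p = 4.22e-05) and -1.01 ± 0.19 with both (adjusted p = 0.000235), but -0.12 ± 0.19 with DAC (adjusted p = 0.733). SLC16A3 (MCT4), the exporter of strongly glycolytic cells, had 728, 915 and 968 in untreated, 645, 527 and 325 with DAC, 1322, 1482 and 1636 with ATRA and 575, 618 and 528 with DAC+ATRA. The ATRA libraries were the highest, and the DAC and DAC+ATRA libraries overlapped below untreated.

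SLC16A3 fell by 0.85 ± 0.18 on the log2 scale with DAC (adjusted p = 0.00336) and rose by 0.77 ± 0.18 with ATRA (adjusted p = 0.00235), and the change with both was -0.59 ± 0.18 (adjusted p = 0.0139, not called). The change with both was called in 7 alternatives at the same threshold: with DESeq2 (adjusted p = 0.00624), edgeR (0.00955), the compared groups alone (0.000267) and the most read row (0.00182), and without untreated replicate 1 (0.00970), DAC replicate 1 (0.00511) or DAC replicate 3 (0.000309). The DAC call was lost without untreated replicate 2 (adjusted p = 0.0213) or 3 (adjusted p = 0.0211), and the ATRA call without untreated replicate 1 (adjusted p = 0.0192), ATRA replicate 2 (adjusted p = 0.0106) or ATRA replicate 3 (adjusted p = 0.0166). Its transcripts did not move as 1 with ATRA. SLC16A3-210 was at 334 ± 28.7 in untreated and 724 ± 43.4 with ATRA, and SLC16A3-213 at 351 ± 76.6 and 583 ± 98.7, while SLC16A3-202 was at 151 ± 25.3 and 90.8 ± 15.1.

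PDK1, the kinase that shuts off pyruvate dehydrogenase, fell in every treatment. It had 909, 914 and 856 normalised counts in untreated, 416, 607 and 647 with DAC, 349, 509 and 333 with ATRA and 199, 169 and 192 with DAC+ATRA. All treated libraries lay below the untreated ones, the DAC and ATRA libraries overlapped, and the DAC+ATRA libraries were the lowest. The log2 change was -1.19 ± 0.17 with ATRA (adjusted p = 1.35e-05) and -2.26 ± 0.17 with both (adjusted p = 3.16e-09), a 4.78-fold fall. With DAC it was -0.71 ± 0.17 (adjusted p = 0.0073), a call lost in 12 of 25 alternatives, with an adjusted p of 0.0441 without DAC replicate 1. PDHA1, the dehydrogenase subunit that the kinase phosphorylates, ranged from 65.8 to 128 normalised counts and was not called.

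In the pentose phosphate pathway, 0 of 6 tested members were called lower in any comparison. Called higher were 2 with DAC, 2 with ATRA and 4 with both, where 4.29%, 12.1% and 14.5% of all genes were. PGD, the dehydrogenase of 6-phosphogluconate that makes NADPH, had 4398, 4595 and 5133 normalised counts in untreated, 11181, 8801 and 8544 with DAC, 6494, 7243 and 7159 with ATRA and 8839.8, 10705 and 11730.1 with DAC+ATRA. Untreated libraries were the lowest, ATRA libraries came next, and the DAC and DAC+ATRA libraries overlapped at the top. It rose 2.01-fold with DAC (adjusted p = 1.16e-05), 1.48-fold with ATRA (adjusted p = 0.00111) and 2.20-fold with both (adjusted p = 4.71e-07).

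RPIA, which isomerizes ribose 5-phosphate in the branch that does not oxidize sugar, rose with ATRA. It had 292, 339 and 359 normalised counts in untreated, 496, 470.5 and 396 with DAC, 964, 867 and 931 with ATRA and 934, 955 and 967 with DAC+ATRA. The libraries with ATRA formed a group far above the rest, and DAC libraries lay between them and untreated. The rise was 2.79-fold with ATRA (adjusted p = 6.27e-09) and 2.89-fold with both (adjusted p = 4.42e-09), and the DAC change of 0.46 ± 0.12 was not called (adjusted p = 0.0115), though it was without DAC replicate 3 (adjusted p = 0.00117).

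TALDO1, transaldolase, was at 621 ± 40.1 in untreated, 954 ± 132 with DAC, 555 ± 13.1 with ATRA and 868 ± 74.7 with both. Its change was 0.61 ± 0.12 with DAC (adjusted p = 0.00132) and 0.48 ± 0.12 with both (adjusted p = 0.00291), the latter with an adjusted p of 0.0101 to 0.0210 without untreated replicate 1 or 2 or DAC+ATRA replicate 1 or 2, and the former 0.0104 without untreated replicate 1. PGLS, the lactonase before PGD, was at 1456 ± 27.1 in untreated and 2174 ± 43.0 with DAC+ATRA (0.58 ± 0.10, adjusted p = 7.89e-05), and 1758 ± 173 and 1554 ± 25.2 with the single drugs were not called. Without DAC replicate 3 the DAC change of PGLS, 0.27 ± 0.10 with it, was 0.35 and called (adjusted p = 0.00716). TKT, transketolase, ranged from 9.86 to 57.2 normalised counts and RPE, the epimerase, from 29.3 to 58.0, and neither was called. The TKT change with ATRA was -0.93 ± 0.36 (adjusted p = 0.04955). That of TALDO1 with ATRA was -0.16 ± 0.12 (adjusted p = 0.311, not called), with all ATRA libraries below all untreated ones.

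**Figure D3:**
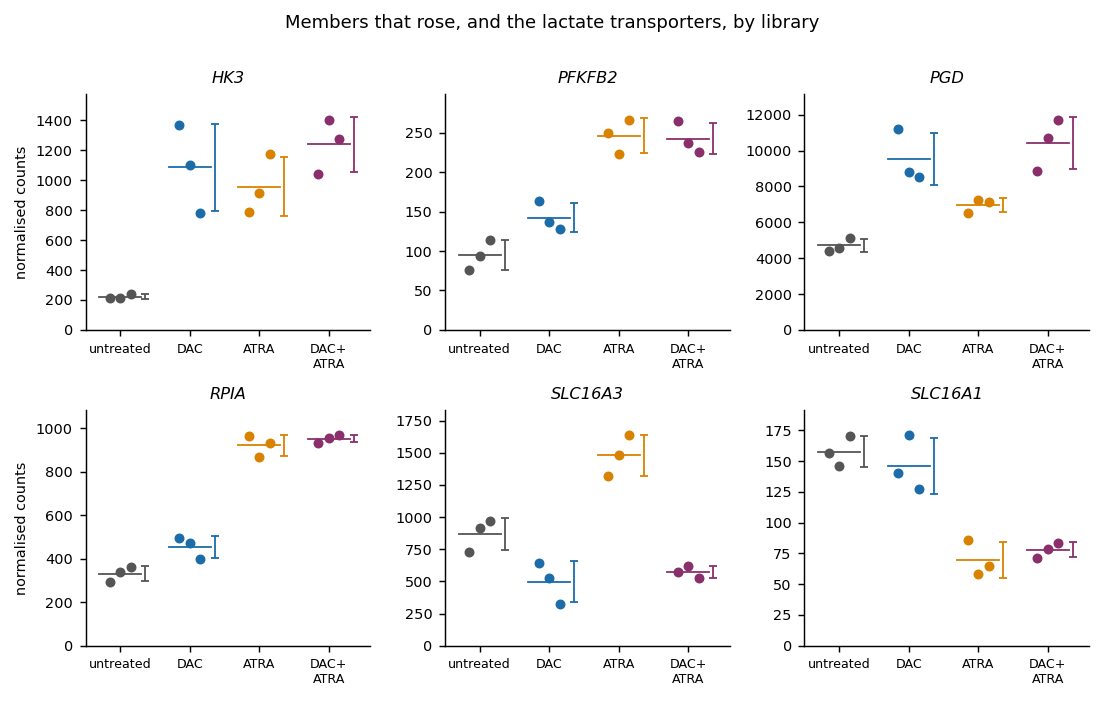
Normalised counts (y axis, from 0, on a scale of its own in each panel) of 4 members that rose and of both lactate carriers, with 1 point per library, the group mean as a line and the SD as a bar beside it (n = 3). RPIA and PFKFB2 are high in the libraries with ATRA, PGD is high in those with DAC, and SLC16A3 is high with ATRA alone.

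The comparison of DAC+ATRA with DAC asked what ATRA added. It called 11 members, 3 higher (9.04% of all genes) and 8 lower (9.74%), where 18.8% of all genes were called, with a median of -0.06 for members and 0.00 for all genes. PFKFB4 fell a further 2.98-fold (adjusted p = 7.51e-05), PDK1 2.93-fold (adjusted p = 7.77e-07) and LDHA 2.39-fold (adjusted p = 0.000462). SLC2A3 (-0.74 ± 0.15), SLC16A1 (-0.89 ± 0.19), ENO1 (-0.62 ± 0.11), GAPDH (-0.56 ± 0.13) and PGK1 (-0.39 ± 0.11) also fell, and RPIA (1.07 ± 0.12) and PFKFB2 (0.77 ± 0.17) rose together with SLC2A1. The PGK1 call (adjusted p = 0.00917) was lost in 15 of 25 alternatives, with an adjusted p of 0.0274 without DAC replicate 3 and up to 0.0610 without DAC+ATRA replicate 3, the GAPDH call without DAC replicate 2 (adjusted p = 0.0117) or DAC+ATRA replicate 3 (adjusted p = 0.0163), and the PFKFB2 call without DAC+ATRA replicate 1 (adjusted p = 0.0113).

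The comparison of DAC+ATRA with ATRA asked what DAC added. It called 14 members, 3 higher (6.47% of all genes) and 11 lower (5.46%), where 11.9% of all genes were called, with a median of -0.16 for members and 0.03 for all genes. PFKFB4 fell 4.92-fold (adjusted p = 2.05e-06), ALDOC 3.63-fold (adjusted p = 3.47e-06), SLC2A3 2.95-fold (adjusted p = 4.53e-07) and SLC16A3 2.57-fold (adjusted p = 2.44e-05). PFKP, ALDOA, GAPDH, PGK1, ENO1, LDHA and PDK1 fell by 0.63 to 1.13 on the log2 scale, and PGD (0.57 ± 0.12), PGLS (0.48 ± 0.10) and TALDO1 (0.64 ± 0.12) rose. The calls of PFKP, LDHA and PGD were lost without single libraries, with adjusted p-values up to 0.0384 for PFKP without DAC+ATRA replicate 3, 0.0183 for LDHA without ATRA replicate 3 and 0.0218 for PGD without DAC+ATRA replicate 3. HK2, at -0.63 ± 0.21 (adjusted p = 0.0349), was called without ATRA replicate 1 (-0.91, adjusted p = 0.00124) and with DESeq2 (adjusted p = 0.00996).

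The interaction, which is the DAC change with ATRA minus the DAC change without it, asked whether the drugs added up on the log2 scale. HK3 was the 1 member called, where 1.6% of all genes were, at -1.86 ± 0.25 (adjusted p = 0.000176). Either drug alone raised HK3 over 4-fold, and adding DAC to ATRA changed it by 0.38 ± 0.18 (adjusted p = 0.138). An unadjusted p under 0.05 was reached by 7 of 31 members, where 14.8% of all genes reached it. For PFKFB4 the interaction was -0.41 ± 0.35 (adjusted p = 0.672), for SLC2A3 0.27 ± 0.21 (adjusted p = 0.623) and for PDK1 -0.36 ± 0.24 (adjusted p = 0.542), none past the test. Without DAC replicate 3, SLC16A3 was called as well, at -0.80 (adjusted p = 0.00908).

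Apart from the 1 added to each count, ratios of members at the same or opposed steps do not depend on how libraries are scaled. The added 1 weighs most on low genes such as LDHB. These ratios are given as a description, with no test. Only their differences between groups can be read, since a ratio by itself does not rank the levels of 2 genes. The log2 ratio of HK3 to HK2 was 0.38 ± 0.01 in untreated, 3.24 ± 0.52 with DAC, 2.75 ± 0.35 with ATRA and 3.76 ± 0.17 with both. That of SLC2A3 to SLC2A1 went from 3.07 ± 0.21 in untreated to 1.59 ± 0.26 with DAC, 1.96 ± 0.27 with ATRA and 0.26 ± 0.07 with both. The ratio of PFKFB4 to PFKFB2 went from 3.86 ± 0.31 in untreated to 1.37 ± 0.38 with DAC, 1.30 ± 0.82 with ATRA and -0.97 ± 0.21 with both. For LDHA to LDHB it was 2.39 ± 0.32, 2.13 ± 0.74, 2.26 ± 0.30 and 0.28 ± 0.57 in the same order of groups, so it was lower with both drugs and overlapped between the other groups. For PDK1 to PDHA1 it was 3.39 ± 0.05, 2.31 ± 0.38, 1.99 ± 0.28 and 1.03 ± 0.51. The ratio of SLC16A3 to SLC16A1 was highest with ATRA, at 4.41 ± 0.42, against 2.45 ± 0.22 in untreated, 1.72 ± 0.43 with DAC and 2.86 ± 0.19 with both.

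**Figure D4:**
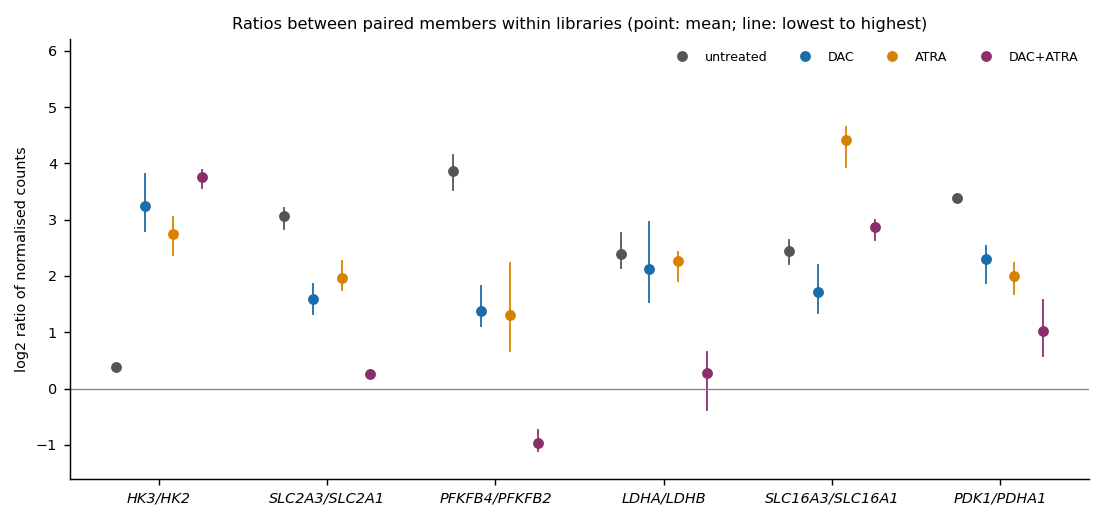
The log2 ratio of normalised counts within each library (y axis) is plotted for 6 pairs of members (x axis) in the 4 groups, with the mean as a point and a line from the lowest to the highest of the 3 libraries. The ratio of HK3 to HK2 is higher in every treatment than in untreated, and that of PFKFB4 to PFKFB2 is lowest with DAC+ATRA.

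Other genes of the pathway were read from lists of textbook members, against shares of all genes called higher of 4.29% with DAC, 12.1% with ATRA and 14.5% with both, and called lower of 3.67%, 14% and 14.4%. Of 8 tested isozymes and side-branch enzymes, DAC called 2 higher, ATRA 1 higher and DAC+ATRA 2 higher, with 0 lower, where the ATRA count is at the share of all genes (12.1%). PGAM5, a mitochondrial phosphatase named for its mutase fold, was at 539.6 ± 48.6 in untreated and 916 ± 132 with DAC+ATRA (adjusted p = 6.6e-05). GPD1L, related to glycerol phosphate dehydrogenase, was called higher with DAC at 0.56 ± 0.12 (adjusted p = 0.00291) and ADPGK, a glucokinase that uses ADP, higher with ATRA at 0.38 ± 0.09 (adjusted p = 0.00214).

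Among 10 further pentose phosphate genes, 1 rose and 1 fell with DAC, 1 rose and 2 fell with ATRA, and 2 rose and 3 fell with both. The ATRA counts are near the shares of all genes (12.1% higher and 14% lower). TKTL1, a transketolase-like gene, had 0 reads in all untreated and ATRA libraries, and 73.8, 76.8 and 27.2 normalised counts with DAC and 11.2, 1.13 and 20.4 with DAC+ATRA. The group mean was at least 24.3-fold higher with DAC and at least 4.48-fold with both. The reference was a floor of 3 reads in the shallowest library of the group at 0. DAC+ATRA replicate 2 had 1 read and lay below that floor. PRPS2, which activates ribose for nucleotide synthesis, fell with ATRA (-1.20 ± 0.22, adjusted p = 0.0002) and with both (-0.92 ± 0.22), and RBKS, ribokinase, fell in all 3 treatments, by up to 0.94 on the log2 scale with ATRA (adjusted p = 8.48e-06).

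Of 12 further genes of pyruvate entry and the pyruvate dehydrogenase step, 1, 2 and 3 fell with DAC, ATRA and both, and 0 rose. Of all genes, 3.67%, 14% and 14.4% fell. PDP2, the phosphatase that undoes the work of the PDK kinases, fell with DAC (-0.82 ± 0.19), ATRA (-1.11 ± 0.19) and both (-0.78 ± 0.19). PDK3, another such kinase, fell with ATRA (-0.51 ± 0.12) and both (-0.79 ± 0.12), and MPC2, a subunit of the mitochondrial pyruvate carrier, with both (-0.46 ± 0.13, adjusted p = 0.00727).

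Of 7 further sugar carriers, 1 rose and 1 fell with DAC, 3 rose with ATRA, and 3 rose and 1 fell with both, where 4.29%, 12.1% and 14.5% of all genes rose. SLC2A5, the fructose carrier GLUT5, had 1419, 1577 and 1513 normalised counts in untreated, 769.6, 799.8 and 682 with DAC, 58517, 67649 and 70552 with ATRA and 30705, 30989.7 and 31320.4 with DAC+ATRA. The 4 groups did not overlap, and the log2 change was 5.44 ± 0.10 with ATRA (adjusted p = 3.26e-18), 4.37 ± 0.10 with both and -1.003 with DAC. SLC2A6, a lysosomal carrier, went from 10.6 ± 4.42 in untreated to 69.0 ± 4.65 with both (2.66 ± 0.33, adjusted p = 2.54e-06).

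In gluconeogenesis and glycogen, 2 of 13 genes rose and 2 fell with DAC, 3 rose and 3 fell with ATRA, and 4 rose and 3 fell with both, where 7.97%, 26% and 28.9% of all genes were called. GBE1, the glycogen branching enzyme, had 3013, 2635 and 2619 normalised counts in untreated, 1136, 1346 and 1418 with DAC, 530.4, 597 and 566 with ATRA and 269, 254 and 250.2 with DAC+ATRA. The groups did not overlap, and the fall with both was -3.41 ± 0.11 (adjusted p = 1.82e-14). FBP1, which runs the phosphofructokinase step backwards, rose from 50.6 ± 15.7 to 247 ± 26.1 with both (2.30 ± 0.24, adjusted p = 2.81e-07). PCK2, the mitochondrial carboxykinase, fell with ATRA (-1.61 ± 0.26, adjusted p = 6.67e-05).

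Hypoxia-responsive genes outside glycolysis had, among the lists read here, the most genes lower and the lowest median with DAC and with both drugs, while with ATRA the proliferation genes described last did. Of 19 tested, 8 fell and 0 rose with DAC, 5 fell and 1 rose with ATRA, and 13 fell and 1 rose with both, where 3.67%, 14% and 14.4% of all genes fell, and the median log2 changes were -0.78, -0.36 and -1.30, against 0.00, -0.04 and 0.00 for all genes. BNIP3, a mitophagy receptor, had 4857, 4202 and 3882 normalised counts in untreated, 1215, 1283 and 1559 with DAC, 1956, 3268 and 2045 with ATRA and 582, 559 and 538 with DAC+ATRA. Its order of groups was that of SLC2A3, with DAC+ATRA lowest, and the change with both was -2.94 ± 0.16 (adjusted p = 2.04e-11). CA9, a carbonic anhydrase, had 16 to 29 reads in untreated libraries and 0 in all DAC+ATRA libraries, which is at least 3.83-fold lower, and was at least 5.99-fold lower with ATRA. ANGPTL4, a lipase inhibitor, was the gene that rose, from 10.6 ± 1.71 in untreated to 335 ± 86.4 with ATRA and 27.5 ± 4.41 with both, while it was at least 2.26-fold lower with DAC.

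**Figure D5:**
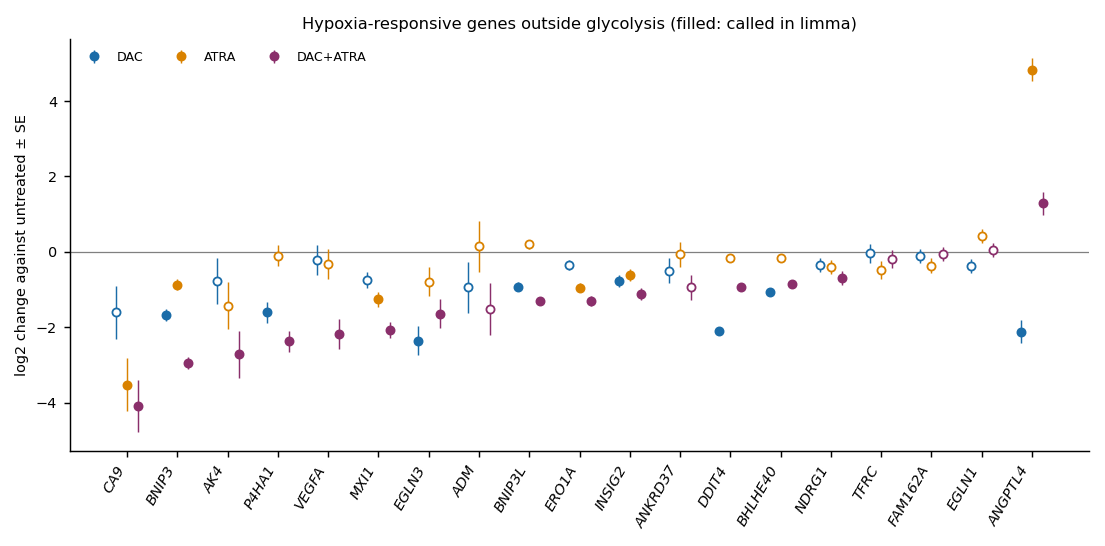
The log2 change against untreated (y axis, with its SE from limma) is plotted for 19 hypoxia-responsive genes outside glycolysis (x axis, sorted by the change with DAC+ATRA) in the 3 treatments, with filled points for called genes. With DAC+ATRA, 13 genes are called below 0, and ANGPTL4 is the 1 called above it.

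Of 19 tested regulators of glycolysis, 2 rose and 2 fell with DAC, 3 rose and 1 fell with ATRA, and 5 rose and 4 fell with both. Of all genes 7.97%, 26% and 28.9% were called, so the 4 of 19 with ATRA are below that share. MLXIPL, a glucose-sensing transcription factor, rose from 7.46 ± 2.09 normalised counts in untreated to 93.7 ± 10.2 with ATRA and 82.2 ± 15.7 with both (adjusted p = 2.25e-08), and was at 7.76 ± 1.19 with DAC. TIGAR, which lowers the activator of phosphofructokinase and so favours the pentose phosphate pathway, rose in all 3 treatments, from 29.5 ± 2.12 to 149 ± 20.3 with both (2.29 ± 0.21, adjusted p = 4.39e-08). MYC, which drives glycolytic genes in growing cells, fell with ATRA (-2.24 ± 0.23, adjusted p = 2.25e-07) and with both (-1.48 ± 0.23, adjusted p = 3.69e-05), and was 94.5 ± 6.73 in untreated and 66.5 ± 0.866 with DAC.

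Genes of proliferation moved with ATRA. Of 16 tested, 1 rose with DAC, 1 rose and 13 fell with ATRA, and 6 fell with both, where 3.67%, 14% and 14.4% of all genes fell. The medians were 0.26, -1.01 and -0.47, against 0.00, -0.04 and 0.00 for all genes. MKI67, a marker of cycling cells, was at 301 ± 79.3 in untreated, 247 ± 23.6 with DAC, 116 ± 4.66 with ATRA and 132 ± 19.4 with both. BUB1, a spindle checkpoint kinase, fell with ATRA (-1.72 ± 0.38) and AURKA, a mitotic kinase, with both (-1.55 ± 0.25). The part of proliferation, of the hypoxia-responsive genes and of library depth in the changes of the members was not tested. By the labels, untreated libraries are at 96 h and treated ones at 72 h, while the design text gives 72 h. If the labels hold, time and treatment cannot be told apart in the comparisons with untreated.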

How the data were processed

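RNA depleted of ribosomal RNA was sequenced from 12 libraries. Per the methods of the study, STAR placed the reads on hg38, htseq-count counted them, and DESeq2 served for the tests. Each row of the deposited values stands for an Ensembl transcript. The deposited values are a normalised signal, read counts that the authors scaled by 1 size factor per library. In every library 100% of values were whole multiples of 1 read within 0.1, so reads could be recovered. Versions of these tools for the RNA-seq are not given in the sources used here. Columns named CTRL were taken as untreated. Of 100502 rows, 88.9% matched a transcript of GENCODE release 44.

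Rows were summed per symbol. Protein-coding genes that reached 10 normalised counts in 3 or more libraries entered limma 3.58.1 in R 4.3.3 (lmFit, eBayes with trend) on log2(normalised count + 1), with all 12 libraries in 1 fit. On this scale the fold of a low gene comes out too small. P-values were adjusted by Benjamini-Hochberg over the 10642 genes, separately in each of 6 comparisons, and 0.01 was the limit for a call, as in the methods of the study. As alternatives, recovered reads were tested with edgeR 4.0.16 and DESeq2 1.42.0. Further ones were total and TMM scaling, pseudocounts of 0.1 and 5, other filters, thresholds and gene sets, the most read row, a replicate block and leaving out each library. The limma script was tested on simulated data.

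Members and gene lists were chosen with earlier results of these data known. Values per library are given for the 14 members with the largest called change and no overlap of the compared groups, means for other called members, and ranges for the rest. At most 3 called genes were named per list, those with the largest change against untreated, with values per library for some of them. The printed promoters were chosen after the motif matches were seen.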

Additional observations from a re-analysis of the deposited data

Results flagged for a closer look

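HK3 changed by 2.24 on the log2 scale when DAC was added to untreated cells and by 0.38 when it was added to ATRA, a difference of -1.86 in the test of the interaction (limma, adjusted p = 0.000176). HK3 was singled out because its DAC change differed with and without ATRA. It was the 1 member of 31 for which this passed the test. The untreated libraries enter this difference, and the labels give 96 h for them and 72 h for treated libraries. Whether that had a part was not tested. All 9 treated libraries lay above all 3 untreated libraries, and the 3 treated groups overlapped.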

How the results depend on the processing

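The count of members called with DAC was 13. It was 7 when only the compared groups entered the fit and 8 without untreated replicate 2. In the fit of the compared groups alone, the DAC+ATRA count was 20 in place of 18. What moved these counts was not tested. The interaction count was 1, and 2 without DAC replicate 3. Leaving out each library in turn gave 8 to 16 members for DAC, 10 to 13 for ATRA, 17 to 19 for DAC+ATRA, 9 to 11 for DAC+ATRA against DAC, 11 to 14 against ATRA and 1 to 2 for the interaction. Every other alternative stayed within 1.5 times the count. Replicate numbers did not pair the libraries: deviations of same-numbered libraries correlated at -0.26 to 0.11 over 18 pairs of libraries, and 1 library was closest to one of its own number. With the replicate block the counts were 11, 12, 18, 10, 14 and 1 in the order above.

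Of 69 calls of single members, 52 held in every alternative, 17 were lost in at least 1, and 0 changed direction, in 1724 results of which 97 were past the threshold no longer. With DAC, PFKP was lost in 14 alternatives (each untreated library, DAC replicates 2 and 3, ATRA replicates 2 and 3 and each DAC+ATRA library left out, and 4 other settings, adjusted p up to 0.0631), ALDOA in 13 (untreated replicates 2 and 3, DAC replicates 2 and 3, each DAC+ATRA library, and 6 other settings, up to 0.0605) and PDK1 in 12 (each untreated library, DAC replicates 1 and 2, each DAC+ATRA library, and 4 other settings, up to 0.0441). ENO1 (0.0288), SLC16A3 (0.0619) and TALDO1 (0.0210) had these highest adjusted p-values with DAC when only the compared groups entered. With ATRA the GAPDH call was also lost in that fit (0.0122) and the ENO1 call with no filter (0.0146). In DAC+ATRA against DAC, PGK1 was lost in 15 alternatives (each untreated library, DAC replicates 1 and 3, ATRA replicate 3, DAC+ATRA replicates 2 and 3, and 7 others, up to 0.0610), the replicate block included (0.0181). In DAC+ATRA against ATRA, PFKP was lost without any ATRA or DAC+ATRA library (up to 0.0384), with total scaling (0.01002) and with the most read row (0.0477), LDHA without ATRA replicate 2 or 3 or DAC+ATRA replicate 3 and with the compared groups alone, and PGD without ATRA replicate 1 or DAC+ATRA replicate 2 or 3. The cause of these losses was not tested. At the depth of the DAC libraries, members under about 10 normalised counts could not be compared.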
